A study of Mus musculus with 6 samples.

Results

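Killer cell lectin-like receptors are C-type lectin-like proteins of the cell surface that natural killer (NK) cells, some T cells and some myeloid cells use to read other cells. All genes of the deposited tables whose symbol starts with Klr followed by a letter were taken as members, which gave 30 of 40842 named genes. They fall into 9 subfamilies, with 13 Klra, 6 Klrb, 3 Klrc, 2 Klrg and 2 Klri genes and Klrd1, Klre1, Klrh1 and Klrk1 alone in theirs. All 30 lie on chromosome 6, and all but Klrg1 and Klrg2 lie between 128586190 and 131224679 of the GRCm39 build, the stretch known as the NK gene complex.

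Expression was measured by polyA RNA sequencing of whole lung from wild-type female C57BL/6N mice. The irradiated group of 3 libraries (irradiated 1 to 3) was sampled 100 days after one exposure to 20 Gy of 9 MeV electrons, and the control group of 3 libraries (control 1 to 3) is labelled as control at the same 100 days. Which body region was exposed is not in the labels. They also do not state that the libraries of a group came from separate mice, so a p-value here covers library-to-library spread, and that spread may be technical.

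Klr receptors either restrain or trigger the cell that carries them. Inhibitory members recruit phosphatases through a tyrosine motif in their cytoplasmic tail, whereas activating members lack that motif and signal through adaptors such as DAP12 (Tyrobp), DAP10 (Hcst) and, for NK1.1, the Fc receptor gamma chain (Fcer1g). In mice the Klra proteins (Ly49) and the CD94 and NKG2 proteins (Klrd1 with Klrc1, Klrc2 or Klrc3) read MHC class I molecules, NKG2D (Klrk1) reads stress-induced ligands, and the NKR-P1 proteins (Klrb1 genes) read Clec2 lectins.

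Levels are given in FPKM, fragments per kilobase of transcript scaled to the mapped fragments of the library, so they are scaled for length and for the depth of the library. The depth implied by the deposited coverage was 5.11 to 10.4 Gb of aligned sequence per library, with irradiated 2 the deepest, and 13467 to 14050 genes per library reached 1 FPKM. Defining genes of lung epithelium and endothelium were present in every library, with Sftpc at 8741 FPKM or more, Ager at 897 FPKM or more and Cldn5 at 144 FPKM or more. A limma fit on log2(FPKM + 1) took in the 13908 genes whose mean over the 6 libraries reached 1 FPKM. Log2 changes are irradiated minus control on that scale, on which genes near 1 FPKM show less than their true ratio, and p-values were adjusted over all 13908 genes by the Benjamini-Hochberg method. Of the 30 members, 14 reached that mean, 10 were below it with a mean of at least 0.3 FPKM in a group, and 6 were lower still.

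In irradiated lung all 3 libraries lay below the controls for 8 of the 9 coding Ly49 genes of NK cells, and for neither of the Ly49 genes of myeloid cells. In 17 of the 30 members all 3 irradiated libraries lay below all 3 control libraries, in none did they lie above, and in 13 the groups overlapped. Over all 31967 genes with a value above 0 in some library, 8.76% had groups that did not overlap with the irradiated libraries below, and 8.26% had them above. The activating Klra4 and Klra8 together had 0.377 times the control level in irradiated lung, the inhibitory NK Ly49 genes 0.447 times, Klre1 0.438 times and the Klrc genes 0.592 times. Klrd1 and Klrk1 were at 0.755 and 0.763 times the control mean. In whole lung RNA, fewer cells of a type and less RNA per cell cannot be told apart.

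No member passed an adjusted p of 0.05 in the limma fit, in which 25 of 13908 genes (0.18%) did. That count over all genes was 0 without control 1 or control 3, 1 without control 2, 100 without irradiated 1, 3 without irradiated 2 and 116 without irradiated 3, and no member was called in any of these fits. The lowest adjusted p among the members was 0.0793. Of the 14 members in the fit, 13 had a negative change and 8 were at an unadjusted p under 0.05, each with the irradiated level the lower. Over all genes of the fit, 10.3% were at that p in that direction and 55.8% had a negative change. The median log2 change was -0.40 over the 14 members and -0.03 over all genes of the fit. Klra4, Klra7, Klra9 and Klrc1 had an irradiated mean below 1 FPKM and entered the fit through their control means. No count over the 14 is therefore read as support for a direction.

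The activating Klra genes are shown by their sequence with inhibitory and myeloid members, because the start of the coding sequence is where the signalling tail of these proteins is encoded. Below are the first 60 coding bases, 5′ to 3′, from the GENCODE M21 transcripts (GRCm38, chromosome 6, minus strand), with capitals at bases that differ from Klra8.
Klra8: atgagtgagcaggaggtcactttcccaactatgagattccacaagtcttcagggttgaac
Klra4: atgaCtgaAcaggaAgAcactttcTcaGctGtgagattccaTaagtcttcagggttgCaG
Klra9: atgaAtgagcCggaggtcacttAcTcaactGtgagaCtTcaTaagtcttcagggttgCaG
Klra7: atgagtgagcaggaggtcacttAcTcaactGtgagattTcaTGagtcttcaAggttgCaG
Klra17: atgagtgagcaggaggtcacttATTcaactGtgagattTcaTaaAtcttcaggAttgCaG
Klra2: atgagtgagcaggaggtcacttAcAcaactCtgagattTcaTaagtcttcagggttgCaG
Counted from 1 at the A of the start codon and with the base of Klra8 first, 9 of the other 10 coding Klra genes carry T23A. The exception is Klra4, which has the same base as Klra8 at that position. The 9 genes with T23A are those known as inhibitory or as expressed by myeloid cells, and the activating Klra4 and Klra8 stand apart from them at this base.

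Klra8 encodes Ly49H, the activating receptor by which C57BL/6 NK cells recognise cells infected with mouse cytomegalovirus. It was at 1.18, 1.80 and 0.984 FPKM in irradiated 1 to 3 and at 3.00, 3.45 and 4.28 FPKM in control 1 to 3. The highest irradiated library was below the lowest control library. The group means were 1.32 ± 0.424 FPKM in irradiated and 3.58 ± 0.652 FPKM in control lung (SD, n = 3 each), a log2 change of -0.99 ± 0.18 (SE) with a limma adjusted p of 0.0793. The deposited coverage behind these values, the mean depth per base, was 6.6, 17 and 5.0 in irradiated 1 to 3 and 19, 23 and 24 in control 1 to 3, so Klra8 was read in every library.

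Klra4 encodes Ly49D, the activating receptor that reads the foreign class I molecule H2-Dd. Its level was 0.643, 1.16 and 0.756 FPKM in irradiated 1 to 3, against 2.11, 1.80 and 2.68 FPKM in control 1 to 3. As with Klra8, irradiated 2 was the highest of its group and still below every control library. The log2 change was -0.79 ± 0.17 (SE), with a limma adjusted p of 0.102. Summed, the activating genes reached 1.83, 2.96 and 1.74 FPKM in irradiated 1 to 3 and 5.11, 5.25 and 6.97 FPKM in control 1 to 3.

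Among the inhibitory Klra genes of NK cells, Klra9 (Ly49I) had the highest control level. It was at 0.966, 1.03 and 0.464 FPKM in irradiated 1 to 3 and at 1.93, 2.22 and 2.29 FPKM in control 1 to 3, without overlap. Its log2 change was -0.80 ± 0.17 (SE), with a limma adjusted p of 0.0947. Klra7 (Ly49G), which reads H2-D molecules, was at 1.03, 0.761 and 0.658 FPKM in irradiated 1 to 3 and at 1.504, 1.44 and 1.52 FPKM in control 1 to 3. The 3 controls lay within a narrow range, and all irradiated libraries lay below it. The log2 change of Klra7 was -0.46 ± 0.14 (SE), with a limma adjusted p of 0.18.

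**Figure D1:**
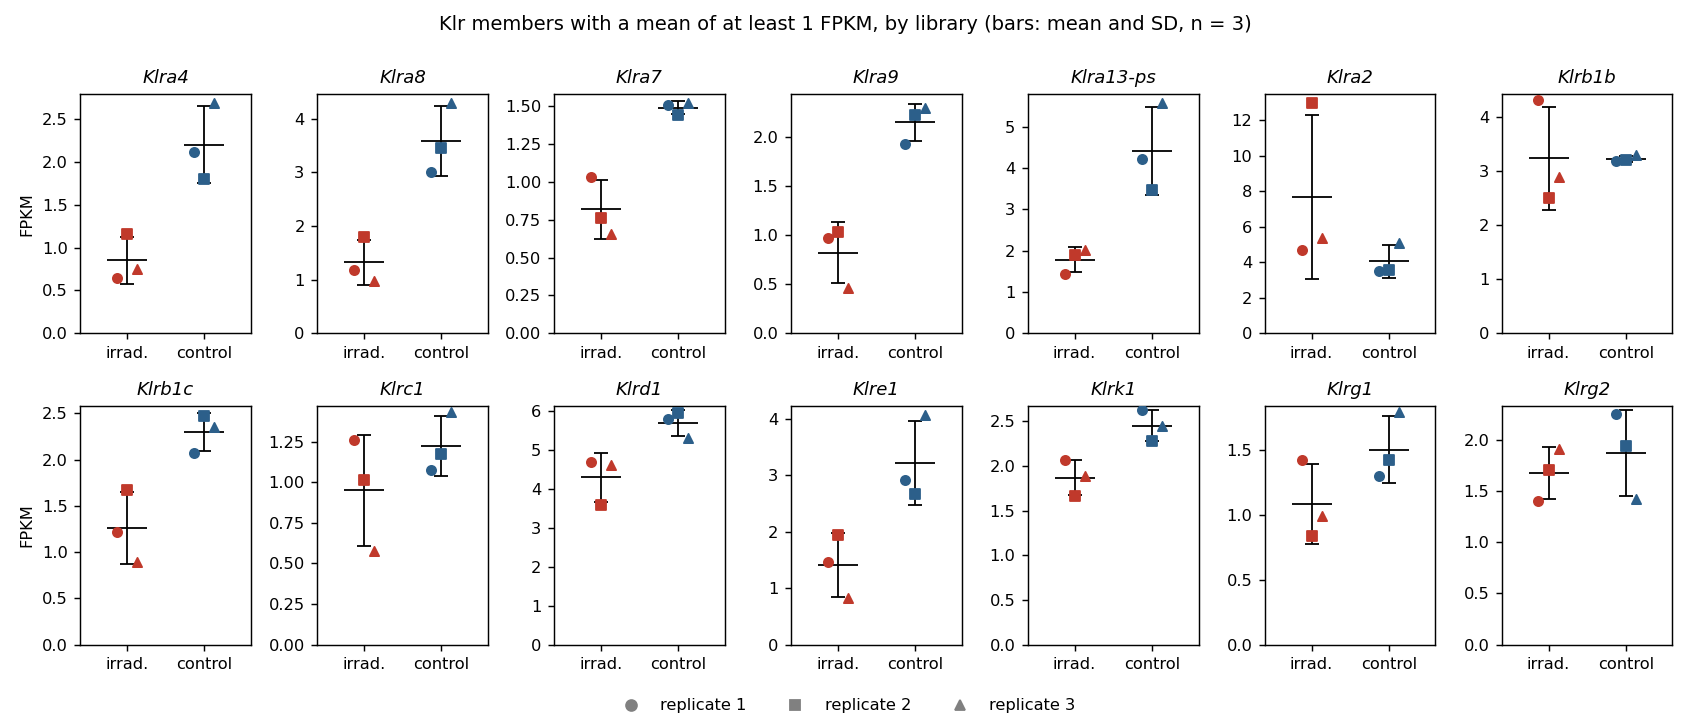
FPKM of the 14 members with a mean of at least 1 FPKM, 1 panel per gene, with irradiated libraries on the left and control libraries on the right of each panel. Symbols are libraries, and bars are the mean and SD of 3. In Klra4, Klra8, Klra7, Klra9, Klra13-ps, Klrb1c, Klrd1, Klre1 and Klrk1 the irradiated libraries lie below the control libraries, and in Klra2 irradiated 2 stands at 12.95 FPKM above the other 5.

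The other inhibitory NK members were below the mean of 1 FPKM and were described by their values alone. Klra3 (Ly49C, a receptor for H2-Kb, which C57BL/6 mice carry) was at 0.353, 0.457 and 0.234 FPKM in irradiated 1 to 3 and at 0.810, 0.722 and 0.5995 FPKM in control 1 to 3. Klra1 (Ly49A) was at 0.127, 0.176 and 0.0306 FPKM in irradiated 1 to 3 and at 0.429, 0.526 and 0.431 FPKM in control 1 to 3. In both genes the groups did not overlap. Klra10 (Ly49J) and Klra6 (Ly49F) stayed below 0.3 FPKM in every library. Their irradiated libraries also lay below the controls, although for Klra6 the nearest libraries of the groups were both at 0.102 FPKM. Klra5 (Ly49E) was at 0.0214 to 0.177 FPKM in irradiated lung and at 0.0471 to 0.111 FPKM in control lung, and it was the only one of the 9 coding Klra genes of NK cells whose groups overlapped.

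Klra13-ps and Klra14-ps are pseudogenes, Ly49M and Ly49N, that lie among the coding Klra genes. Klra13-ps was at 1.44, 1.90 and 2.01 FPKM in irradiated 1 to 3 and at 4.21, 3.47 and 5.57 FPKM in control 1 to 3, with a log2 change of -0.95 ± 0.17 (SE) and a limma adjusted p of 0.0793. Klra14-ps was at 0.407, 0.221 and 0.0948 FPKM in irradiated 1 to 3, against 1.07, 1.34 and 1.62 FPKM in control 1 to 3. Neither gene had overlapping groups, and the pseudogene sum in irradiated lung was 0.351 times that in control lung.

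How far reads can be told apart within the subfamily bears on those values. Klra14-ps shares its longest identical run, of 165 bases, with the coding sequence of Klra8, and Klra13-ps shares one of 122 bases with that of Klra7. The coding sequence of Klra8 also shares a run of 106 bases with that of Klra9. Untranslated parts of the coding genes were left out of these runs, so runs in whole transcripts can be longer. The 80 bases from coding base 43 to 122 are shown for Klra8, Klra14-ps and Klra9 (GENCODE M21, GRCm38, chromosome 6, minus strand), with capitals where they differ from Klra8.
Klra8: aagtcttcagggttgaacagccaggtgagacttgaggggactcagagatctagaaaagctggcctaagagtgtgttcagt
Klra14-ps: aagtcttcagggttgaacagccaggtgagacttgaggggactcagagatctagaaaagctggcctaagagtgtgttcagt
Klra9: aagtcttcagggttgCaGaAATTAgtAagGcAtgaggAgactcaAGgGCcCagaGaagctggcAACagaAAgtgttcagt
A read from this stretch cannot be assigned between Klra8 and Klra14-ps, whereas Klra9 differs from Klra8 at 22 of its bases here. Of all 100-base windows of the transcripts, 14.4% of those of Klra8 and 13.3% of those of Klra14-ps also occur in another Klr gene. The share was 4.07% for Klra9, 1.86% for Klra13-ps, 1.83% for Klra7 and 0% for Klra4, Klra1, Klra2 and Klra17. For 50-base windows the shares were larger, at 33.1% for Klra8, 25.6% for Klra14-ps, 31.5% for Klra9, 13.7% for Klra13-ps, 12.3% for Klra7, 4.35% for Klra4, 2.98% for Klra1 and 0% for Klra2 and Klra17. For Klra10 and Klra3 they were 5.25% and 1.78% with 100-base windows, and 39.8% and 20.7% with 50-base windows. With 150-base windows of the transcripts, 6.03% of those of Klra8 and 5.77% of those of Klra14-ps were still shared. Klra8, Klra14-ps, Klra9 and Klra10 are therefore uncertain as separate values, as are Klra3, Klra7 and Klra13-ps to a lesser extent. How long the reads were and how multiply matching reads were counted is not stated in the labels.

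**Figure D2:**
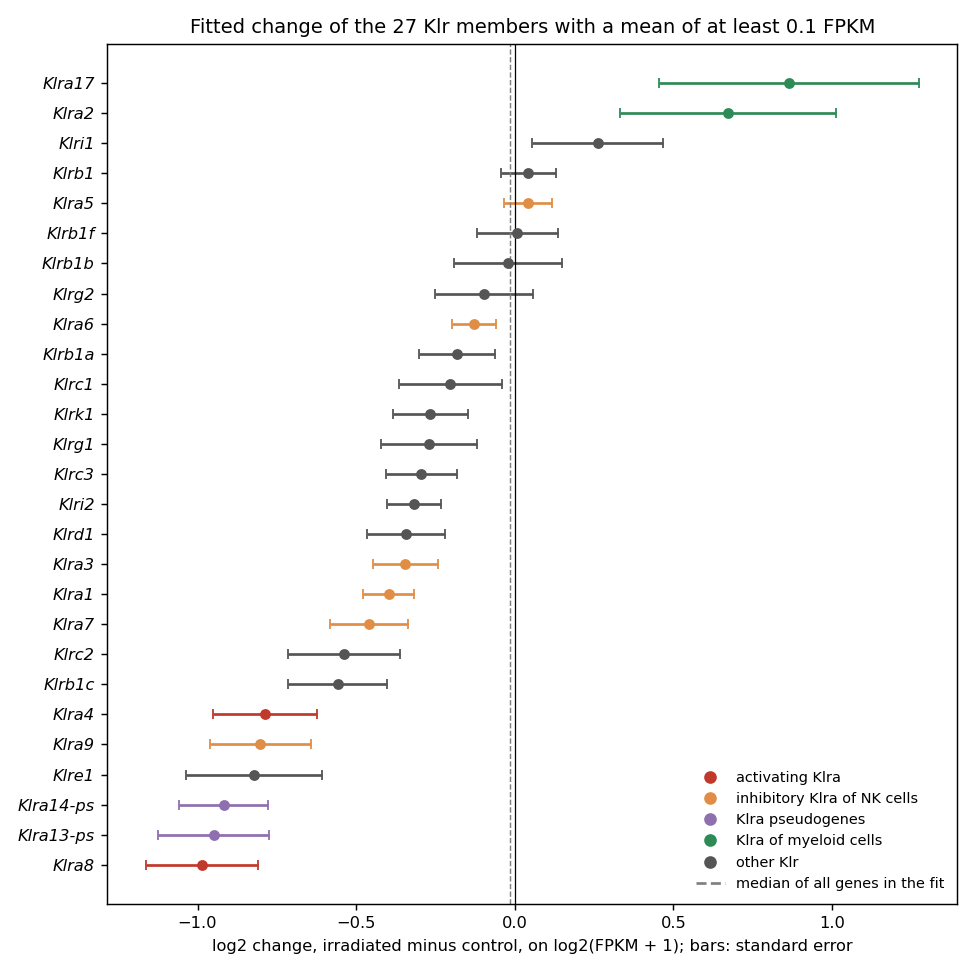
Log2 change, irradiated minus control on log2(FPKM + 1), of the 27 members with a mean of at least 0.1 FPKM, from a limma fit over the 19211 genes above that mean. Points are fitted changes, bars are standard errors, colours are the role groups, and the dashed line is the median of all genes of that fit, -0.01. Klra8, the pseudogenes, Klre1, Klra9 and Klra4 are farthest to the left, and Klra2 and Klra17 are farthest to the right.

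For the members of the Klra subfamily that myeloid cells express, the irradiated means were above the control means and the groups overlapped. Klra2 encodes Ly49B, an inhibitory receptor of macrophages and other myeloid cells. It was at 4.67, 12.95 and 5.36 FPKM in irradiated 1 to 3 and at 3.48, 3.55 and 5.11 FPKM in control 1 to 3. Irradiated 2 stood far above the other 5 libraries, and irradiated 1 lay among the controls. The log2 change was 0.67 ± 0.35 (SE), with a limma adjusted p of 0.366. Without irradiated 2 the log2 change of Klra2 was 0.27.

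Klra17 encodes Ly49Q, a receptor for H2-Kb on plasmacytoid dendritic cells, neutrophils and macrophages. It was listed at 0.299, 3.25 and 1.40 FPKM in irradiated 1 to 3 and at 0.247, 0.0745 and 0.639 FPKM in control 1 to 3. Its coverage was 1.7, 34 and 7.1 in irradiated 1 to 3 and 1.6, 0.5 and 3.8 in control 1 to 3. Irradiated 2 and 3 were the highest libraries in both measures, while irradiated 1 lay between the controls.

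Neutrophil genes were high in the same libraries. The 10 neutrophil markers, among them Csf3r, Retnlg and S100a8, the last chosen after its values were seen, summed to 227, 4899 and 1442 FPKM in irradiated 1 to 3 and to 167, 78.2 and 514 FPKM in control 1 to 3, and none of them was at 0 in every library. Siglech, a defining gene of plasmacytoid dendritic cells, was at 1.13, 0.313 and 0.584 FPKM in irradiated 1 to 3 and at 0.525, 0.735 and 1.04 FPKM in control 1 to 3. The 8 plasmacytoid dendritic cell markers listed summed to 116, 99.3 and 95.1 FPKM in irradiated 1 to 3 and to 119, 134.7 and 134.7 FPKM in control 1 to 3. Of the 5 in the fit, 4 had a negative and 1, Runx2, a positive change. The median log2 change was 2.41 for the neutrophil list, 0.16 for 8 monocyte, -0.14 for 9 alveolar macrophage and -0.32 for 5 plasmacytoid dendritic cell markers in the fit, with no marker called. Ly6g of the neutrophil list, at a control mean of 0.428 FPKM, entered the fit through its irradiated mean of 4.71 FPKM. The part that neutrophils or other myeloid cells had in the Klra2 and Klra17 values was not tested.

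**Figure D3:**
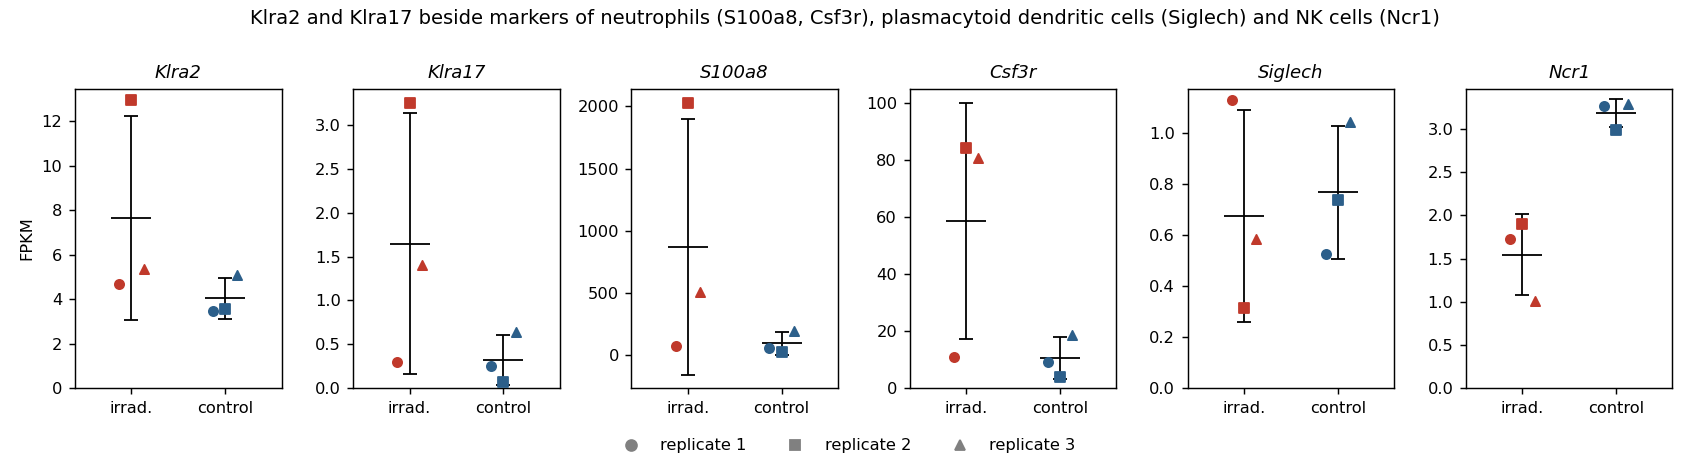
FPKM by library of Klra2 and Klra17 beside S100a8 and Csf3r (neutrophils), Siglech (plasmacytoid dendritic cells) and Ncr1 (NK cells), with irradiated libraries on the left and control libraries on the right of each panel. Bars are the mean and SD of 3 libraries, and the lower bar of S100a8 reaches below 0 because its SD exceeds its mean. Irradiated 2 is the highest library for Klra2, Klra17, S100a8 and Csf3r.

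The sequence before the start site is shown for Klra8 and Klra4, with irradiated means below control, and for Klra17 and Klra2, with means above. These 4 are shown because their promoters are similar, and the other coding Klra promoters compared were less like that of Klra8. The groups of Klra17 and Klra2 overlapped. The 120 bases before the RefSeq start site are given on the minus strand, 5′ to 3′ (GRCm38.p6), with capitals at GAGGAA or its reverse complement TTCCTC, the core motif of the myeloid factor PU.1. They are chr6:130129899-130130018 for Klra8, chr6:130067272-130067391 for Klra4, chr6:129876673-129876792 for Klra17 and chr6:131247363-131247482 for Klra2.
Klra8: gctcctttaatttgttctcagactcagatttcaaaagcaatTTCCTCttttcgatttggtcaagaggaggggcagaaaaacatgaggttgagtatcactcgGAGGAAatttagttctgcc
Klra4: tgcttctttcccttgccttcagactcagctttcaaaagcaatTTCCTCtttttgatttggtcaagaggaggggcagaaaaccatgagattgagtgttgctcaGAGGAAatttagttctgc
Klra17: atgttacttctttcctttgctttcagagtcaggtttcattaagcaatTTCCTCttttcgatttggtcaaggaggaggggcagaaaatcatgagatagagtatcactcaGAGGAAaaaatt
Klra2: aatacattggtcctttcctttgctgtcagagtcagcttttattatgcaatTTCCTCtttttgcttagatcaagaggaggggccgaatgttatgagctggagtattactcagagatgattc
Over the 300 bases that RefSeq gives around the start site, Klra8 was 86% identical to Klra4, 79% to Klra17 and 70.6% to Klra2. It was 70.2% identical to Klra5, 62.6% to Klra6, 53% to Klra9 and 47.8% to Klra3. Identity was 46% to Klra7, 45.3% to Klra10 and 42.9% to Klra1. The 4 promoters shown all hold the TTCCTC copy, and Klra2 alone of the 4 lacks the GAGGAA copy in this stretch. On either strand the motif was in 14 of the 24 members with a promoter in RefSeq and in 28.3% of all 27025 promoters of that length. Some Klra promoters are closely alike, such as those of Klra4 and Klra8 at 86% and of Klra3 and Klra9 at 85%. The 14 are therefore not all independent, although other pairs were less alike, such as Klra3 and Klra4 at 44.8%.

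Motifs of factors known from NK cells were counted in the same way, and each was rarer than the PU.1 core over all promoters. The T-box core AGGTGT, or ACACCT on the other strand, was in the promoters of Klrb1 and Klrh1, that is 2 of the 24, and in 13.9% of all promoters. The RUNX core TGTGGT, or ACCACA, was in 8 of the 24 and in 16.9% of all promoters. Those 8 were Klra1, Klrb1a, Klrb1c, Klrc1, Klrc2, Klrc3, Klre1 and Klrk1. A match is a description of the letters in the window and not a site of binding.

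**Figure D4:**
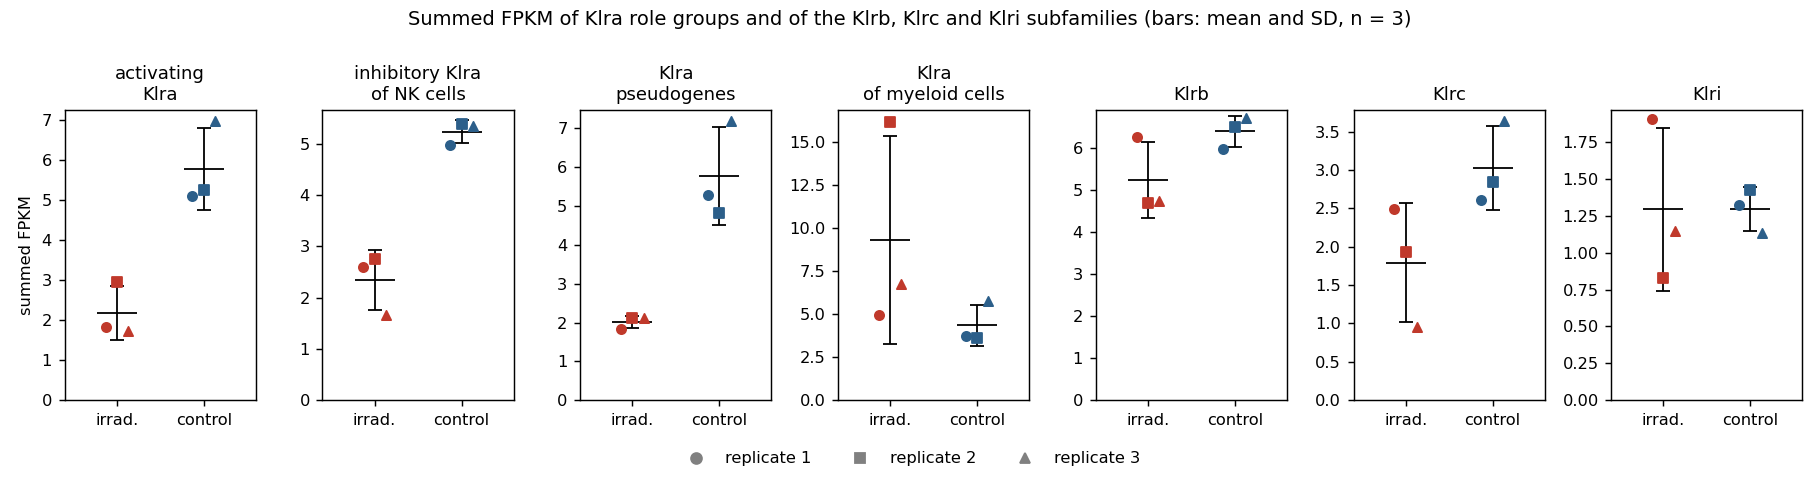
Summed FPKM by library of the activating Klra genes, the inhibitory Klra genes of NK cells, the Klra pseudogenes, the myeloid Klra genes and the Klrb, Klrc and Klri subfamilies, with irradiated libraries on the left and control libraries on the right. Bars are the mean and SD of 3 libraries. The irradiated libraries of the NK groups of Klra, 1.67 to 2.96 FPKM, lie below the controls at 4.97 to 6.97 FPKM, whereas the groups of the myeloid genes, Klrb and Klri overlap.

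The sum over the Klra subfamily holds both the NK and the myeloid genes. The inhibitory NK genes summed to 2.60, 2.75 and 1.67 FPKM in irradiated 1 to 3 and to 4.97, 5.38 and 5.35 FPKM in control 1 to 3. The myeloid genes summed to 4.97, 16.2 and 6.76 FPKM in irradiated 1 to 3 and to 3.72, 3.62 and 5.74 FPKM in control 1 to 3. All 13 Klra genes together gave 11.2, 24.0 and 12.3 FPKM in irradiated 1 to 3 and 19.1, 19.1 and 25.3 FPKM in control 1 to 3, with overlap. Myeloid Klra genes made up 15.1%, 39.3% and 23.04% of all Klr FPKM in irradiated 1 to 3, and 8.48%, 8.21% and 11.1% in control 1 to 3.

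CD94 (Klrd1) is the shared partner of the NKG2 proteins and binds the class I molecule Qa-1 with them. It was at 4.69, 3.57 and 4.62 FPKM in irradiated 1 to 3 and at 5.80, 5.94 and 5.31 FPKM in control 1 to 3, the highest control level of all members. The groups did not overlap. The log2 change was -0.34 ± 0.12 (SE), with a limma adjusted p of 0.221.

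Of the NKG2 partners, the groups overlapped for Klrc1 and not for Klrc2 and Klrc3. Klrc1 (NKG2A, inhibitory) was at 1.26, 1.01 and 0.578 FPKM in irradiated 1 to 3 and at 1.07, 1.18 and 1.43 FPKM in control 1 to 3, with overlap and a log2 change of -0.20 ± 0.18 (SE), limma adjusted p = 0.589. Klrc2 (NKG2C, activating) was at 0.790, 0.559 and 0.174 FPKM in irradiated 1 to 3 and at 0.944, 1.15 and 1.40 FPKM in control 1 to 3. Klrc3 (NKG2E) was at 0.436, 0.361 and 0.203 FPKM in irradiated 1 to 3 and at 0.586, 0.512 and 0.808 FPKM in control 1 to 3. Irradiated 3 was the lowest library for all of the Klrc genes. The ratio of Klrc1 to Klrc2 within a library was 1.59, 1.81 and 3.33 in irradiated 1 to 3 and 1.14, 1.02 and 1.02 in control 1 to 3, above the controls in every irradiated library. Of the 100-base windows, 14.6% of those of Klrc1, 7.09% of those of Klrc2 and 16% of those of Klrc3 occur in another Klr gene, and 38.6%, 16.3% and 36.3% of their 50-base windows, so these values are also uncertain against each other.

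Klre1 pairs with the proteins of Klri1 and Klri2, with an inhibitory outcome for Klri1 and an activating one for Klri2 in mice. Klre1 was at 1.46, 1.95 and 0.825 FPKM in irradiated 1 to 3 and at 2.92, 2.67 and 4.08 FPKM in control 1 to 3. The groups did not overlap, and the log2 change was -0.82 ± 0.22 (SE), with a limma adjusted p of 0.142. Its coverage was low, at 1.2 to 6.5 in irradiated lung and 6.0 to 7.1 in control lung.

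The Klri partners were below a mean of 1 FPKM. Klri1 was at 1.48, 0.413 and 0.714 FPKM in irradiated 1 to 3 and at 0.492, 0.654 and 0.417 FPKM in control 1 to 3, so that irradiated 1 and 3 were above the controls and irradiated 2 below them. Klri2 was at 0.420, 0.415 and 0.430 FPKM in irradiated 1 to 3 and at 0.832, 0.774 and 0.714 FPKM in control 1 to 3, with a narrow spread in both groups and no overlap. Within each library the ratio of Klri1 to Klri2 was 3.53, 0.995 and 1.66 in irradiated 1 to 3 and 0.591, 0.845 and 0.585 in control 1 to 3. Their sum overlapped between the groups.

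NKG2D (Klrk1) is an activating receptor of NK cells and of some T cells. It was at 2.06, 1.66 and 1.88 FPKM in irradiated 1 to 3 and at 2.63, 2.28 and 2.44 FPKM in control 1 to 3, without overlap. The log2 change was -0.27 ± 0.12 (SE), with a limma adjusted p of 0.307. The ratio of Klrk1 to Ncr1, the gene of the NK receptor NKp46, was 1.19, 0.877 and 1.86 in irradiated 1 to 3 and 0.804, 0.761 and 0.743 in control 1 to 3.

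In the Klrb subfamily, Klrb1c encodes NK1.1, the activating receptor used to mark NK cells in C57BL/6 mice. It was at 1.21, 1.67 and 0.897 FPKM in irradiated 1 to 3 and at 2.08, 2.47 and 2.35 FPKM in control 1 to 3. The groups did not overlap, with a log2 change of -0.56 ± 0.16 (SE) and a limma adjusted p of 0.164. Klrb1b, the inhibitory receptor for the lectin of Clec2d, was at 4.31, 2.49 and 2.88 FPKM in irradiated 1 to 3 and at 3.17, 3.20 and 3.29 FPKM in control 1 to 3. Its controls were almost equal and its irradiated libraries lay on both sides of them, with a log2 change of -0.02 ± 0.17 (SE), a limma adjusted p of 0.964, and a positive change of 0.08 with a common sum and of 0.01 with median-ratio scaling.

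The remaining Klrb genes were low. Klrb1a was at 0.169, 0.211 and 0.404 FPKM in irradiated 1 to 3 and at 0.251, 0.593 and 0.460 FPKM in control 1 to 3. Klrb1f, a receptor for Clec2 lectins, was at 0.466, 0.267 and 0.276 FPKM in irradiated 1 to 3 and at 0.336, 0.135 and 0.536 FPKM in control 1 to 3. Klrb1 stayed at or under 0.276 FPKM, and the pseudogene Klrb1-ps1 was above 0 in 2 libraries only. The groups of these 4 genes overlapped.

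Klrg1 encodes an inhibitory receptor for cadherins on mature NK cells and effector T cells. It was at 1.43, 0.836 and 0.988 FPKM in irradiated 1 to 3 and at 1.30, 1.42 and 1.79 FPKM in control 1 to 3, with overlap. Its log2 change was -0.27 ± 0.16 (SE), with a limma adjusted p of 0.425. Klrg2 was at 1.41, 1.71 and 1.91 FPKM in irradiated 1 to 3 and at 2.26, 1.95 and 1.42 FPKM in control 1 to 3, with a log2 change of -0.10 ± 0.16 (SE), limma adjusted p = 0.79. Klrh1 was listed at 0 in every library.

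**Figure D5:**
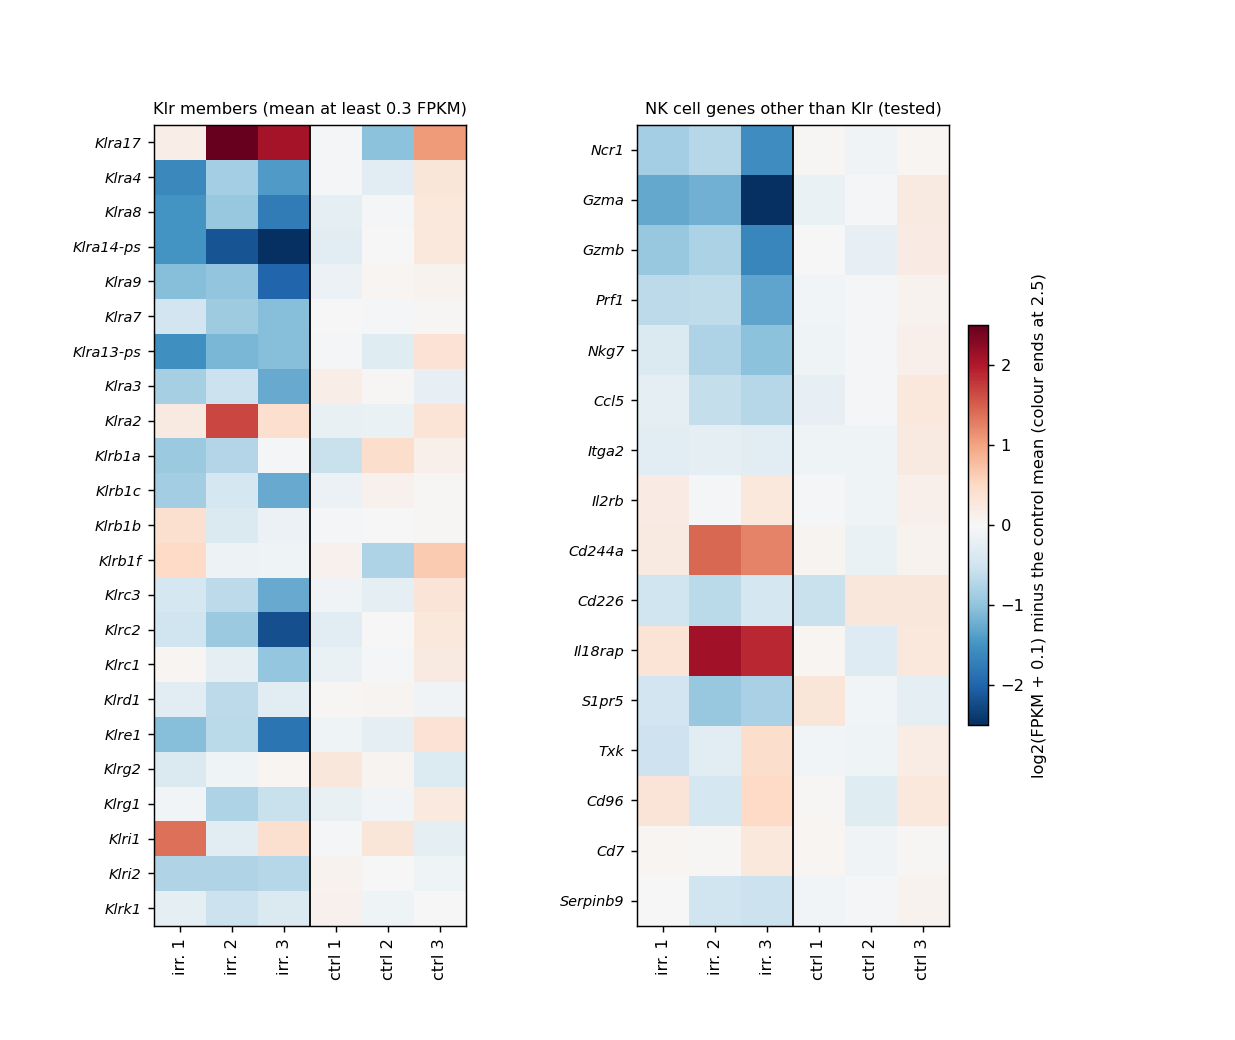
Log2(FPKM + 0.1) minus the mean of the control libraries, for Klr members (left) and for the tested NK cell genes other than Klr (right). The members shown average 0.3 FPKM or more across all 6 libraries, so Klra1, at 0.287 FPKM, is left out. Irradiated libraries are in the left columns and control libraries in the right columns of each panel. Blue is below and red above the control mean. Klra17 and Klra2 and, among the NK genes, Cd244a and Il18rap are red in irradiated 2 and 3, while most Klra genes, Ncr1, Gzma, Gzmb and Prf1 are blue in all 3 irradiated libraries.

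Genes by which NK cells are otherwise known were set beside the receptors. Of 24 such genes, 16 were in the fit and none was called in either direction. The irradiated libraries lay below the controls in 8 of the 16 and above them in 2, against 14.6% and 9.91% of all tested genes, and the median log2 change of the list was -0.38. Ncr1 was at 1.73, 1.90 and 1.01 FPKM in irradiated 1 to 3 and at 3.27, 2.99 and 3.28 FPKM in control 1 to 3. Granzyme A (Gzma), a killing protease, was at 10.8, 11.5 and 4.33 FPKM in irradiated 1 to 3 and at 23.4, 25.4 and 30.9 FPKM in control 1 to 3. Both were without overlap, with limma adjusted p-values of 0.109 and 0.102.

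Ratios within a library set the Ly49 genes against other NK genes. The 9 coding NK Klra genes together were 2.56, 3.01 and 3.36 times Ncr1 in irradiated 1 to 3 and 3.09, 3.55 and 3.75 times Ncr1 in control 1 to 3, with overlap. Relative to Klrd1, the same 9 genes were at 0.944, 1.596 and 0.738 in irradiated 1 to 3. In control 1 to 3 they were at 1.738, 1.788 and 2.32, without overlap. The activating Klra4 and Klra8, part of those 9, were at 0.390, 0.828 and 0.377 times Klrd1 in irradiated 1 to 3. In control 1 to 3 they were at 0.881, 0.883 and 1.31, also without overlap. This pair was not set against Ncr1. Klrd1 itself was 2.71, 1.886 and 4.55 times Ncr1 in irradiated 1 to 3. In control 1 to 3 it was 1.776, 1.986 and 1.616 times Ncr1, with overlap. Cd244a and Il18rap, named after their values were seen, were the NK list genes above the controls in every irradiated library. Il18rap was at 3.32, 11.5 and 9.80 FPKM in irradiated 1 to 3 and at 2.69, 2.04 and 3.14 FPKM in control 1 to 3. Irradiated 2 and 3 were its highest libraries, as for the neutrophil markers, and a relation to neutrophil content was not tested.

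T cells can also carry Klrd1, Klrk1, Klrc1 and Klrg1. The 12 αβ T cell markers summed to 86.3, 55.7 and 109 FPKM in irradiated 1 to 3 and to 61.9, 75.7 and 68.8 FPKM in control 1 to 3. Of the 6 γδ T cell markers in the fit, 4 lay above the controls in all irradiated libraries, against 9.91% of all tested genes, and none was called. Among the 4 were Trdv4, Cd163l1 and Trgv6, the last of which reached the mean of 1 FPKM through the irradiated libraries alone. The other 2, Blk and Sox13, had overlapping groups and negative log2 changes of -0.15 and -0.30. The median log2 change was 0.66 for the γδ T list, 0.19 for the αβ T list and 0.08 for the list of type 1 innate lymphoid cells. Of the 6 genes of the last list, 3 had a negative change, among them Tnfsf10 at -0.94, and 3 a positive one, namely Il7r at 0.72, Cxcr6 at 0.31 and Cd200r1 at 0.27. The list medians were 0.32 for type 2 innate lymphoid cells, -0.26 for B cells and 0.73 for red cells, the last with its highest library in irradiated 2. The type 2 median rests on the 4 of 8 listed genes in the fit, 3 with a positive and 1 with a negative change. Icos among them, at a control mean of 0.881 FPKM, entered through its irradiated mean of 1.68 FPKM. The part of the T, innate lymphoid, B and red cells in the Klr values was not tested.

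The signalling partners are shared with other leukocytes. All 16 adaptor and signalling genes were in the fit, 15 with a positive and 1 with a negative change, a median of 0.31 and none called. In 7 of them every irradiated library lay above the controls, among them Syk, Lcp2, Vav1 and Zap70, and in none below, against 9.91% above and 14.6% below over all tested genes. Tyrobp (DAP12), the adaptor of Ly49H and Ly49D that myeloid cells also use, was at 50.03, 144 and 107 FPKM in irradiated 1 to 3 and at 44.7, 44.2 and 63.8 FPKM in control 1 to 3. Its highest libraries were irradiated 2 and 3, as for the neutrophil markers, and irradiated 1 lay within the controls. The log2 change of Tyrobp was 0.86 ± 0.38 (SE), with a limma adjusted p of 0.308.

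Of 7 genes of MHC class I and its loading, all had a negative change, as did 55.8% of all tested genes, and their median was -0.22. For 3 of these genes every irradiated library was below the controls, against 14.6% of all tested genes, and none was called. H2-T23, the Qa-1 ligand of CD94 with NKG2, was at 106, 104 and 106 FPKM in irradiated 1 to 3 and at 121, 126 and 132 FPKM in control 1 to 3, with a log2 change of -0.26 ± 0.09 (SE) and a limma adjusted p of 0.202. H2-K1, read by Ly49C, Ly49I and Ly49Q, was at 611, 422 and 452 FPKM in irradiated 1 to 3 and at 524, 587 and 593 FPKM in control 1 to 3, with overlap.

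Clec2d encodes the lectin that Klrb1b reads. It was at 61.3, 47.7 and 62.8 FPKM in irradiated 1 to 3 and at 85.3, 88.1 and 112 FPKM in control 1 to 3, with a log2 change of -0.72 ± 0.15 (SE) and a limma adjusted p of 0.097. The groups of the ligand did not overlap, and those of its receptor did. Of the other Clec2 genes, Clec2i was in the fit and overlapped, and 5 were too low. Ligands of NKG2D were low: of 10 genes listed, 5 were matched in the files and none reached the mean of 1 FPKM. Cdh1, the E-cadherin read by Klrg1, was at 77.9, 63.9 and 75.4 FPKM in irradiated 1 to 3 and at 85.3, 80.8 and 69.4 FPKM in control 1 to 3, with overlap.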

How the data were processed

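Whole lung of 3 irradiated and 3 control mouse libraries was used. Per the labels' protocols, RNA was extracted with TRIzol, and polyA libraries were run on a DNBSEQ-T7. GRCm39, fastp, STAR 2.7.6a and DESeq2 are listed in the submitters' processing notes without their roles. For the quantifier, annotation, read length and strand setting the sources used here give nothing, and without strand, reads of overlapping genes on opposite strands cannot be told apart. The 3 genes that overlap a member had at most 0.0121 FPKM.

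FPKM are as deposited by the authors, per the file headers, and were summed per gene ID over named entries. Depth is described by the deposited coverage, a signal giving the mean depth per base. Each table also holds entries that were assembled without a name and repeat the same loci. The deposited TPM was not used because these entries count in its sum. As the files hold no counts, no counting interval is given for the low values.

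Limma 3.58.1 in R 4.3.3, with a trended prior variance and robust estimation, was fitted to log2(FPKM + 1) of genes that averaged 1 FPKM or more, with group as the only term. An adjusted p under 0.05 was called. Ratios and sums have no test. The labels give both groups replicates 1 to 3. Deviations from the group means of libraries with the same number correlated at -0.17, -0.54 and -0.28. Deviations within a group of 3 sum to 0, so these correlations depend on each other. They cannot decide whether the numbers pair the libraries. Transcript sequences are from GENCODE M21 (GRCm38) and promoters from RefSeq (GRCm38.p6), matched by symbol for 24 of 30 members, while coordinates of the members are those of the files (GRCm39). Python 3.11.15 with pandas 2.3.3 was used for the tables.

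Members and lists were chosen with earlier results of these data known. Members with a group mean of at least 0.3 FPKM are given in every library. Of each list of NK, innate lymphoid, T, B, myeloid, red cell, ligand and adaptor genes, up to 6 with the smallest p are named, and of ligands and adaptors any. Siglech and S100a8 were named after their values were seen. Alternatives were other scalings, filters and pseudocounts, a block for the replicate number, and fits without each library in turn.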

Additional observations from a re-analysis of the deposited data

How the results depend on the processing

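No Klr member was called by limma in any of 15 alternatives. Leaving out each library gave 7 to 9 members at an unadjusted p under 0.05. The share of all genes at that p in those fits was not taken, so this count is not read as support. The number of genes called over all tested genes, 25, was 13 with a common sum, 13 with a mean of at least 0.1 FPKM, 38 with a mean of at least 5 FPKM, 11 with median-ratio scaling, 0 without a filter, 0 with the replicate number as a block, and 0 to 116 when each library was left out. The cause was not tested. With the replicate block, which rests on a shared number only, no Klr member was called either. The common sum moved the median of all tested genes from -0.03 to 0.08.

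The median log2 change of the tested members, -0.40, was -0.64 with a pseudocount of 0.1, -0.27 without a filter, where 29 members enter, and -0.47 to -0.34 when each library was left out. The 9 tested members with groups that do not overlap became 16 from 0.1 FPKM, 17 without a filter and 0 from 5 FPKM, where Klra2 alone is left in the fit. Over all genes, 14.6% lay below the controls without overlap in the main fit and 8.76% without a filter. The share from 0.1 or 5 FPKM was not taken. The log2 change of Klrb1b turned to 0.078 with a common sum and 0.0099 with median-ratio scaling, and was -0.20 to 0.11 when each library was left out, positive without irradiated 2 or irradiated 3. The log2 ratio of summed Klrg levels, -0.29, was -0.16 with a common sum.

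An alternative chosen after seeing the data took the unnamed assembled entries at the members' loci. The log2 ratio of the Klra pseudogenes, -1.51, was then -1.15. Klra1, Klra6, Klrd1, Klri2 and Klrk1, whose groups did not overlap in the named entries, overlapped in the assembled ones.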
